A study of Homo sapiens with 4 samples.

Results

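The 10 genes described here encode the machinery that takes a cell through G1: the D-type cyclins CCND2 and CCND3, the kinases CDK4, CDK6 and CDK2, the E-type cyclins CCNE1 and CCNE2, and the CDK inhibitors CDKN1B, CDKN2C and CDKN2D. The rule takes them by gene name and uses no measured value, but the 10 were listed with earlier results of these data known. Their shares beside those of all tested genes are therefore a description. All 10 were found among 24940 genes in an RNA-seq table of MOLM-13 cells. MOLM-13 is a human line of acute myeloid leukaemia with a KMT2A fusion. Its cells held lentiviral short hairpins against both c-Myc and Bcl-2 (the group labelled sh-c-Myc_sh-Bcl2, or double knockdown), against c-Myc alone (sh-c-Myc), against Bcl-2 alone (sh-Bcl2), or a negative control hairpin (shControl). All 4 groups were given doxycycline to induce the hairpin, and infected cells had been selected in 0.5 µg/ml puromycin or 600 µg/ml G418. The labels do not say whether the infected cells of a group were a clone or a pool. Each of the 4 groups held 1 library, so no difference between 2 groups has a replicate check. Brackets give 95% intervals, which allow for counting error and nothing else.

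Mitogens act on G1 through the D-type cyclins, which bind and activate CDK4 or CDK6, and these kinases phosphorylate the retinoblastoma protein. Phosphorylation frees E2F factors, which switch on cyclin E and the genes of DNA replication, and cyclin E with CDK2 completes the commitment to S phase. INK4 proteins such as those of CDKN2C and CDKN2D block CDK4 and CDK6, while p27, the product of CDKN1B, blocks cyclin E-CDK2. CDK6 and cyclin D3 are the forms typical of blood cells, and CDK4 and CCND2 are textbook targets of MYC.

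The libraries held 15494138 (double knockdown), 14421558 (sh-c-Myc), 15691129 (sh-Bcl2) and 14825763 (shControl) counts. MYC stood at 302 CPM (counts scaled to library size with TMM factors) in the double knockdown and 278 CPM in sh-c-Myc, against 364 CPM in sh-Bcl2 and 434 CPM in shControl. BCL2 stood at 44.5 CPM in the double knockdown and 38.7 CPM in sh-Bcl2, against 112 CPM in sh-c-Myc and 119.7 CPM in shControl. The transcript of each target was thus lower in both libraries that carry its hairpin than in both that do not, by less for MYC than for BCL2. Of 8 myeloid identity genes, such as SPI1 and FLT3, 7 reached 10 CPM in every library. B cell, erythroid and megakaryocyte marker lists each summed to at most 5.13 CPM in any library. Monocyte and macrophage markers moved with the groups: 11 of 12 were in the table, and they summed to 818 CPM in the double knockdown, 773 CPM in sh-c-Myc, 262 CPM in sh-Bcl2 and 154 CPM in shControl. Of the 8 that met the CPM filter, 6 were called higher in the double knockdown than in shControl, against 7.12% of tested genes. In sh-c-Myc 6 were called higher than in shControl, against 12.7%, and in sh-Bcl2 3 were, against 2.46%. Among the 11, CD68 and VCAN were near the floor, with 2 and 5 counts in the double knockdown, 1 and 0 in sh-c-Myc, and 0 in sh-Bcl2 and shControl. In the order double knockdown, sh-c-Myc, sh-Bcl2 and shControl, CD14 had 15, 19, 12 and 11 counts and CD163 had 31, 9, 21 and 16. Neither was called against shControl in any library, and CSF1R stood at 152, 179, 35.7 and 19.0 CPM in that order. Granulocyte markers summed to 4529, 4535, 1513 and 2286 CPM in the same order. The part of these shifts in the values of the G1 genes was not tested, and in bulk RNA fewer cells of a type and less RNA per cell cannot be told apart.

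The E-type cyclins differed most between libraries, with their low in sh-c-Myc, and CCND2, CDK4 and CDK2 were also lower with the c-Myc hairpin. CCND3, CDK6 and CDKN1B were slightly higher with it. A gene was called higher or lower where 2 libraries differed by at least 2-fold in scaled counts and the interval did not take in a ratio of 1. Tested were the 13726 genes that reached 1 CPM in some library, all 10 G1 genes among them. Between sh-c-Myc and shControl, 4 of the 10 were called lower (CCND2, CDK4, CCNE1 and CCNE2), against 9.79% of all tested genes, and 0 were called higher, against 12.7%. Between sh-Bcl2 and shControl, 0 of 10 were called in either direction, against 2.16% of tested genes lower and 2.46% higher. The median log2 ratio of the 10 genes was -0.63 for sh-c-Myc over shControl (-0.02 over all tested genes) and -0.22 for sh-Bcl2 over shControl (0.00 over all tested genes).

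For the double knockdown over shControl, 1 of the 10 was called lower (CCND2), against 5.95% of tested genes, and 0 higher, against 7.12%. For the double knockdown over sh-Bcl2, which shows the c-Myc hairpin in cells that already carry the Bcl-2 hairpin, 1 was called lower (CCNE1), against 3.60%, and 0 higher, against 5.20%. For the double knockdown over sh-c-Myc, 2 were called higher (CCNE1 and CCNE2), against 1.65%, and 0 lower, against 4.85%. Several of these comparisons share a library, so their counts are not independent of each other. The pair sh-c-Myc/shControl and double knockdown/sh-Bcl2 shares none, and neither does the pair sh-Bcl2/shControl and double knockdown/sh-c-Myc.

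**Figure D1:**
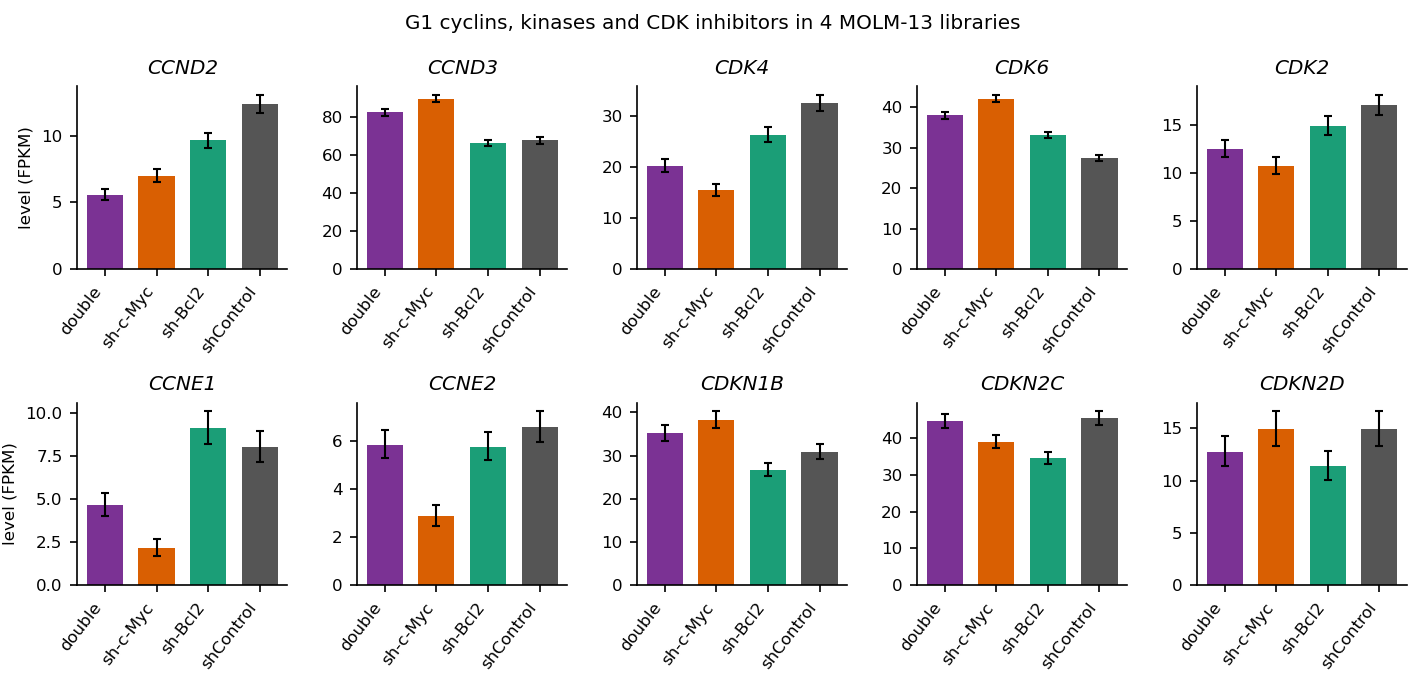
Level in FPKM (fragments scaled to gene length and library size, deposited by the authors) of the 10 G1 genes in the double knockdown, sh-c-Myc, sh-Bcl2 and shControl, 1 library each; error bars are 95% counting intervals. CCNE1 and CCNE2 had their lowest bar in sh-c-Myc (2.15 and 2.87 FPKM), CCND2 had its lowest in the double knockdown (5.59 FPKM), and CCND3 was the most abundant of the 10 in every library.

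One model over all 4 libraries, with 1 term for each hairpin, gave the test that the layout allows. In this 2 by 2 edgeR quasi-likelihood fit over 12885 genes, 3021 (23.4%) passed an adjusted p of 0.05 for the c-Myc hairpin and 5 (0.0388%) for the Bcl-2 hairpin. For the c-Myc hairpin, 4 of the 10 G1 genes passed, and all 4 fell: CCNE1, CCND2, CDK4 and CDK2. For the Bcl-2 hairpin 0 of 10 passed edgeR's test, and DESeq2 and limma-voom also called 0. In the edgeR fit 1 of the 10 (CCNE1) had an unadjusted p under 0.05 for this hairpin, as did 967 of the 12885 genes. The 1 residual degree of freedom of the fit mixes non-additivity with library-to-library spread.

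CCND2 encodes cyclin D2 (ENSG00000118971; GRCh38 chr12:4273772-4305350, plus strand). Its level was 5.59 FPKM in the double knockdown, 7.02 FPKM in sh-c-Myc, 9.67 FPKM in sh-Bcl2 and 12.4 FPKM in shControl. The 4 libraries thus stood in steps, with each hairpin lower than its absence in both backgrounds. The log2 ratio was -1.01 [-1.14, -0.88] for sh-c-Myc over shControl and -0.85 [-0.9997, -0.7114] for the double knockdown over sh-Bcl2. For the Bcl-2 hairpin it was -0.23 [-0.39, -0.07] for the double knockdown over sh-c-Myc and -0.38 [-0.50, -0.27] for sh-Bcl2 over shControl. CCND2 was the only 1 of the 10 whose interval lay below a ratio of 1 for both hairpins in both backgrounds. Its fall with the c-Myc hairpin was -0.93 ± 0.163 (log2, SE; edgeR adjusted p = 0.00246), and the double knockdown stood 2.36-fold below shControl. The sh-c-Myc value sits at the 2-fold limit: scaled by total counts it was -0.82, below the size needed for a call. Of its exonic bases, 13.8% are also annotated to AC008012.1 on the same strand.

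CCND3 encodes cyclin D3 (ENSG00000112576; chr6:41934933-42050357, minus strand), and its level was 82.7 FPKM in the double knockdown, 89.9 FPKM in sh-c-Myc, 66.6 FPKM in sh-Bcl2 and 67.8 FPKM in shControl. Both libraries with the c-Myc hairpin were above both without it, by a log2 ratio of 0.25 [0.20, 0.30] for the double knockdown over sh-Bcl2 and 0.22 [0.17, 0.27] for sh-c-Myc over shControl. The 2 by 2 fit did not call it (0.24, edgeR adjusted p = 0.356). Cyclin D3 made up most D-type cyclin message throughout. CCND2 supplied 6.33% of the summed CCND2 and CCND3 FPKM in the double knockdown, 7.25% in sh-c-Myc, 12.7% in sh-Bcl2 and 15.5% in shControl. The ratio of CCND2 to CCND3 does not depend on how a library is scaled, and it was 2.15-fold [1.94, 2.39] lower in the double knockdown than in sh-Bcl2 and 2.35-fold [2.13, 2.58] lower in sh-c-Myc than in shControl. CCND1, the remaining D-type cyclin, was scarce, with 58, 31, 117 and 142 counts in the double knockdown, sh-c-Myc, sh-Bcl2 and shControl. It was called lower than in shControl both in sh-c-Myc (log2 ratio -2.32 [-2.95, -1.77]) and in the double knockdown (-1.43 [-1.91, -0.99]).

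CDK4 encodes a kinase that partners the D-type cyclins (ENSG00000135446; chr12:57747727-57756013, minus strand). Its level was 20.2 FPKM in the double knockdown, 15.5 FPKM in sh-c-Myc, 26.4 FPKM in sh-Bcl2 and 32.6 FPKM in shControl. The low was in sh-c-Myc and the double knockdown lay between it and both libraries without the c-Myc hairpin. The log2 ratio was -1.25 [-1.38, -1.12] for sh-c-Myc over shControl, a 2.38-fold lower level, and -0.45 [-0.57, -0.33] for the double knockdown over sh-Bcl2. The fall with the c-Myc hairpin was -0.85 ± 0.199 (log2, SE; edgeR adjusted p = 0.0102). With the Bcl-2 hairpin the sign differed by background, at 0.48 [0.34, 0.62] for the double knockdown over sh-c-Myc and -0.33 [-0.43, -0.22] for sh-Bcl2 over shControl.

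The promoter of CDK4 carries E-boxes, the hexamer CACGTG that MYC with its partner MAX is known to bind. In the 250 bases before the RefSeq start (GRCh38.p14; 12 windows for 7 of the 10 genes; both strands searched) it held 3 copies. CDKN2C held 1 copy in 2 of its 3 windows, and the windows of CCND3, CDK6, CCNE1, CDKN1B and CDKN2D held 0. Over all 35116 RefSeq promoter windows of this length, 6.34% held at least 1 CACGTG and 0.0797% (28 windows) held at least 3. The E2F-type sequences TTTCGCGC and TTTGGCGC were found in 0 of the 12 windows, and in 0.439% and 0.550% of all windows. A match of letters is a description of the window and shows no binding, and annotated CDK4 transcripts start at several places inside it. The annotated CDK4 gene also extends past this window on its upstream side, to base 57756013, so the window lies within the gene. The 5 sites are shown 5′ to 3′ on the gene's strand with 12 bases on each side and the E-box in capitals, at 216, 196 and 101 bases before the CDK4 start and at 220 and 69 bases before different CDKN2C starts.
CDK4, chr12:57752509-57752538, minus strand: atgtcaagcggtCACGTGtgatagcaacag
CDK4, chr12:57752489-57752518, minus strand: atagcaacagatCACGTGgctgccatcgcc
CDK4, chr12:57752394-57752423, minus strand: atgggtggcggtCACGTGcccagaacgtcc
CDKN2C, chr1:50960513-50960542, plus strand: gattgtgcacctCACGTGgttagtcacaca
CDKN2C, chr1:50970164-50970193, plus strand: ttgctgaataatCACGTGtgaatcgagggg

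Part of CDK4 is shared with another gene, and the sources used here do not give the strand setting of the count step. Of its exonic bases, 43.2% overlap TSPAN31, a tetraspanin gene on the opposite strand, which went the other way: TSPAN31 had 529 counts in the double knockdown, 585 in sh-c-Myc, 272 in sh-Bcl2 and 246 in shControl. The log2 ratio of TSPAN31 was 1.10 [0.89, 1.32] for sh-c-Myc over shControl. Without strand, reads from the shared stretch cannot be assigned to 1 of the 2 genes, so the values of CDK4 carry this uncertainty.

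CDK6 encodes the other kinase of the D-type cyclins (ENSG00000105810; chr7:92604921-92836594, minus strand). Its level was 38.1 FPKM in the double knockdown, 42.2 FPKM in sh-c-Myc, 33.2 FPKM in sh-Bcl2 and 27.4 FPKM in shControl. It was highest where CDK4 was lowest, and lowest where CDK4 was highest. The log2 ratio was 0.44 [0.38, 0.49] for sh-c-Myc over shControl and 0.14 [0.09, 0.18] for the double knockdown over sh-Bcl2, and the 2 by 2 fit did not call it (0.29, edgeR adjusted p = 0.271). CDK6 has 12260 exonic bases, and its longest transcript is low in GC (39.5%). Over 10739 genes the log2 ratio of sh-c-Myc to shControl had a Spearman rho of -0.0002 with GC and 0.160 with length. With the trend of log2 ratios on GC and length removed, the sh-c-Myc value was 0.23, against 0.44 without this step.

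The balance of the pair differed between libraries more than its sum did. Summed CDK4 and CDK6 stood at 58.3 FPKM in the double knockdown, 57.7 FPKM in sh-c-Myc, 59.5 FPKM in sh-Bcl2 and 60.0 FPKM in shControl. The deposited FPKM are scaled by total counts, and with TMM library sizes the sums were 57.8, 53.4, 61.7 and 63.1 FPKM in the same order, so the sum was then lowest in sh-c-Myc. CDK4 made up 34.7% of this sum in the double knockdown, 26.9% in sh-c-Myc, 44.3% in sh-Bcl2 and 54.3% in shControl. By these FPKM it was the more abundant of the pair in shControl alone. That order is uncertain, since 43.2% of CDK4's exonic bases overlap TSPAN31 and the strand setting is not known. The ratio of CDK4 to CDK6, which needs no scaling, was 3.22-fold [2.93, 3.55] lower in sh-c-Myc than in shControl. It was 1.50-fold [1.37, 1.64] lower in the double knockdown than in sh-Bcl2 and 1.49-fold [1.38, 1.62] lower in sh-Bcl2 than in shControl. In the double knockdown it was 1.44-fold [1.30, 1.60] higher than in sh-c-Myc. Counting reads and not FPKM, CDK4 took 12.1%, 8.69%, 17.0% and 23.5% of the pair's counts in the double knockdown, sh-c-Myc, sh-Bcl2 and shControl. This order of libraries is the same, and the shares are smaller because CDK6 has more exonic bases.

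**Figure D2:**
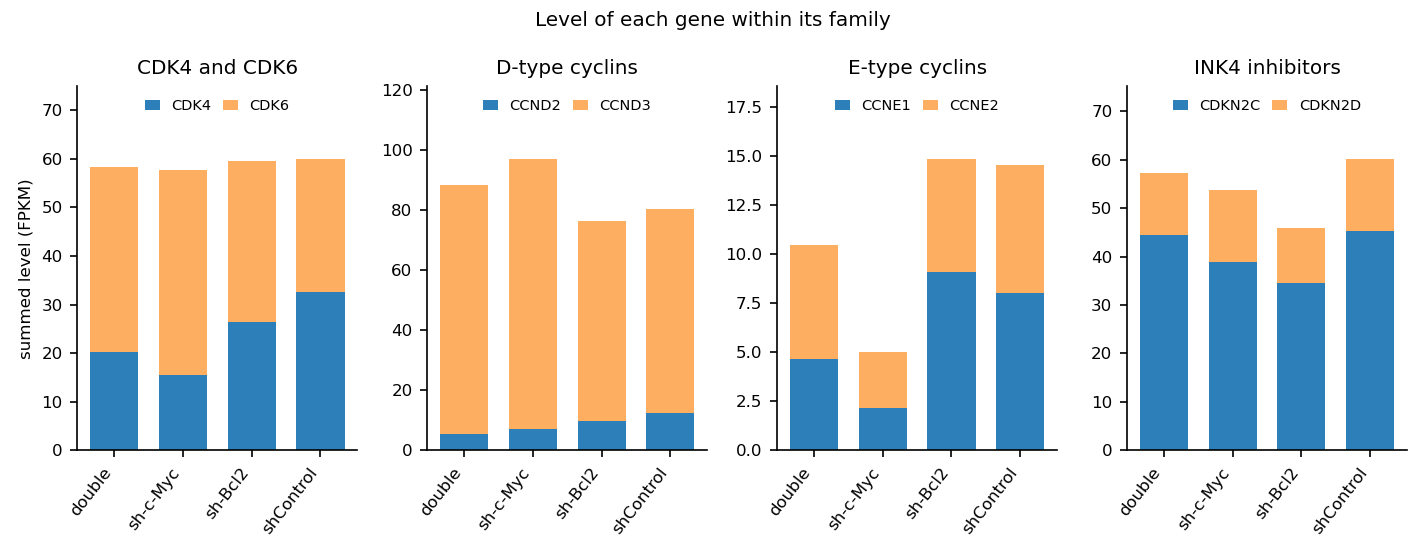
Summed level in FPKM of 4 pairs of G1 genes in each library (double knockdown, sh-c-Myc, sh-Bcl2, shControl; 1 library each), with each gene's part in its own colour. The bars for CDK4 and CDK6 are nearly equal in height on this scale (57.7 to 60.0 FPKM; 53.4 to 63.1 FPKM with TMM library sizes) while CDK4's part runs between 26.9% and 54.3%, and the bar for the E-type cyclins is lowest in sh-c-Myc (5.02 FPKM).

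CCNE1 encodes cyclin E1, an activator of CDK2 (ENSG00000105173; chr19:29811898-29824308, plus strand), and had the widest span of the 10 genes. Its level was 4.66 FPKM in the double knockdown, 2.15 FPKM in sh-c-Myc, 9.12 FPKM in sh-Bcl2 and 8.01 FPKM in shControl, from 184, 79, 365 and 303 counts. Both libraries with the c-Myc hairpin were below both without it, and sh-c-Myc was the lower of them. It was 4.22-fold [3.30, 5.51] lower in sh-c-Myc than in shControl and 2.05-fold [1.71, 2.46] lower in the double knockdown than in sh-Bcl2. The fall with the c-Myc hairpin was -1.53 ± 0.274 (log2, SE; edgeR adjusted p = 0.00276). The Bcl-2 hairpin went with a 2.31-fold [1.78, 3.06] higher level in the double knockdown than in sh-c-Myc, while sh-Bcl2 and shControl differed by a log2 ratio of 0.16 [-0.06, 0.39], an interval that includes no difference. The double knockdown lies at the 2-fold limit below sh-Bcl2: scaled by total counts that log2 ratio was -0.97, short of a call.

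CCNE2 encodes cyclin E2, its close relative (ENSG00000175305; chr8:94879770-94896678, minus strand). Its level was 5.83 FPKM in the double knockdown, 2.87 FPKM in sh-c-Myc, 5.75 FPKM in sh-Bcl2 and 6.57 FPKM in shControl. One library, sh-c-Myc, stood below the other 3, which lay close together. CCNE2 was 2.60-fold [2.18, 3.11] lower in sh-c-Myc than in shControl, but the double knockdown and sh-Bcl2 held the same 397 counts, a log2 ratio of -0.05 [-0.25, 0.16]. The double knockdown was 2.17-fold [1.82, 2.61] above sh-c-Myc. In the 2 by 2 fit the c-Myc term was -0.70 (log2; edgeR adjusted p = 0.0906), and the adjusted p lay between 0.0117 and 0.181 over the 5 ways the fit was run. Of its exonic bases, 37.0% overlap INTS8 on the opposite strand, a gene of the Integrator complex whose log2 ratio was 0.24 [0.16, 0.33] for the double knockdown over sh-c-Myc and 0.25 [0.16, 0.34] for sh-c-Myc over shControl. The longest CCNE2 transcript is the poorest in GC among those of the 10 genes (36.9%). Over 10739 genes the log2 ratio of the double knockdown to sh-c-Myc ran with GC (Spearman rho -0.313, across genes, which are not independent replicates). With the trends on GC and length both removed the CCNE2 log2 ratio was 0.94, under the size needed for a call, against 1.12 without this step. The trend on GC was strongest for sh-Bcl2 over shControl (Spearman rho -0.345 across the same genes), the other comparison of the Bcl-2 hairpin.

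Summed CCNE1 and CCNE2 stood at 10.5 FPKM in the double knockdown, 5.02 FPKM in sh-c-Myc, 14.9 FPKM in sh-Bcl2 and 14.6 FPKM in shControl. The make-up of the sum went with the c-Myc hairpin: CCNE1 supplied 44.4% of it in the double knockdown and 42.8% in sh-c-Myc, against 61.3% in sh-Bcl2 and 55.0% in shControl. The ratio of CCNE1 to CCNE2 was 1.98-fold [1.58, 2.48] lower in the double knockdown than in sh-Bcl2 and 1.63-fold [1.21, 2.21] lower in sh-c-Myc than in shControl. Between the double knockdown and sh-c-Myc that ratio differed by a log2 value of 0.09 [-0.36, 0.55], so both E-type cyclins were higher in the double knockdown to an extent that these counts cannot tell apart. On the log2(FPKM + 1) scale, which understates differences of low genes, the double knockdown stood above sh-c-Myc by 0.85 for CCNE1 and 0.82 for CCNE2, and sh-c-Myc stood at -0.97 relative to shControl for CCNE2, all short of 2-fold.

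CDK2 encodes the kinase that both E-type cyclins activate (ENSG00000123374; chr12:55966769-55972784, plus strand). Its level was 12.5 FPKM in the double knockdown, 10.7 FPKM in sh-c-Myc, 14.9 FPKM in sh-Bcl2 and 17.0 FPKM in shControl, the same order of libraries as CDK4. The log2 ratio was -0.85 [-1.001, -0.704] for sh-c-Myc over shControl and -0.32 [-0.46, -0.18] for the double knockdown over sh-Bcl2. Its fall with the c-Myc hairpin was -0.58 ± 0.180 (log2, SE; edgeR adjusted p = 0.0348), a call that DESeq2 did not make (adjusted p = 0.111, the highest of the 5 ways the fit was run; the lowest was 0.0168). In the double knockdown it stood above sh-c-Myc by 0.32 [0.16, 0.47], while sh-Bcl2 stood below shControl, at -0.22 [-0.35, -0.08]. Genes on the opposite strand share 16.8% of its exonic bases.

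None of the 3 CDK inhibitors was called in any of the 5 comparisons. In each comparison most tested genes were not called either, with 1.65% to 12.7% called in a given direction. CDKN1B encodes p27 (ENSG00000111276; chr12:12715058-12722371, plus strand), and its level was 35.2 FPKM in the double knockdown, 38.3 FPKM in sh-c-Myc, 26.7 FPKM in sh-Bcl2 and 30.9 FPKM in shControl. Both libraries with the c-Myc hairpin were above both without it, by a log2 ratio of 0.34 [0.23, 0.45] for the double knockdown over sh-Bcl2 and 0.13 [0.02, 0.23] for sh-c-Myc over shControl. The 2 by 2 fit did not call it (0.23, edgeR adjusted p = 0.316). These are levels of mRNA, and p27 is a protein known to be set largely by its breakdown. SKP2 and CKS1B, which mark p27 for that breakdown, were both called lower in sh-c-Myc than in shControl, at log2 ratios of -1.12 [-1.255, -0.995] and -1.23 [-1.39, -1.08]. Neither was called for the double knockdown over shControl (-0.34 [-0.45, -0.23] and -0.79 [-0.93, -0.66]) or over sh-Bcl2 (-0.60 [-0.70, -0.50] and -0.46 [-0.60, -0.32]).

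CDKN2C encodes the INK4 protein p18 (ENSG00000123080; chr1:50960745-50974633, plus strand). Its level was 44.5 FPKM in the double knockdown, 38.8 FPKM in sh-c-Myc, 34.5 FPKM in sh-Bcl2 and 45.3 FPKM in shControl. Each single knockdown stood below both the double knockdown and shControl. The c-Myc hairpin went with a log2 ratio of 0.31 [0.22, 0.40] for the double knockdown over sh-Bcl2 and -0.41 [-0.50, -0.32] for sh-c-Myc over shControl. For the Bcl-2 hairpin these were 0.30 [0.21, 0.39] for the double knockdown over sh-c-Myc and -0.41 [-0.51, -0.32] for sh-Bcl2 over shControl. Each such difference is below 1.5-fold, and edgeR's fit, which assumes that the 2 hairpins add, gave terms of -0.05 for c-Myc (adjusted p = 0.870) and -0.06 for Bcl-2 (adjusted p = 0.954).

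CDKN2D encodes the INK4 protein p19 (ENSG00000129355; chr19:10566462-10569059, minus strand), and its level was 12.8 FPKM in the double knockdown, 14.9 FPKM in sh-c-Myc, 11.4 FPKM in sh-Bcl2 and 14.9 FPKM in shControl. With 269 to 332 counts per library, only 2 of its 5 log2 ratios had an interval off 0: -0.31 [-0.54, -0.08] for the double knockdown over shControl and -0.41 [-0.64, -0.17] for sh-Bcl2 over shControl. CDKN2C supplied 77.7% of the summed CDKN2C and CDKN2D FPKM in the double knockdown, 72.3% in sh-c-Myc, 75.1% in sh-Bcl2 and 75.2% in shControl. Among the other CDK inhibitors, CDKN1A, which encodes p21, stood at 310, 373, 390 and 438 CPM in the double knockdown, sh-c-Myc, sh-Bcl2 and shControl, with no call. CDKN1C, which encodes p57, had 1, 6, 0 and 0 counts in the same order, under the CPM filter. CDKN2A and CDKN2B were not analysed here.

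Ordered by FPKM, CCND3 was the first of the 10 in every library. The next place was held by CDKN2C in the double knockdown (44.5 FPKM), sh-Bcl2 (34.5 FPKM) and shControl (45.3 FPKM) and by CDK6 in sh-c-Myc (42.2 FPKM). In sh-Bcl2 the counting intervals of CDKN2C (32.9 to 36.1 FPKM) and CDK6 (32.4 to 34.0 FPKM) overlapped, as did those of CDKN2C (37.1 to 40.7 FPKM) and CDKN1B (36.5 to 40.3 FPKM) in sh-c-Myc. The last place was held by CCNE1 in the double knockdown and sh-c-Myc, and by CCNE2 in sh-Bcl2 and shControl. CDK4 held place 5 in the double knockdown, sh-c-Myc and sh-Bcl2 and place 3 in shControl. Its interval overlapped that of CDKN2D in sh-c-Myc (14.42 to 16.73 and 13.32 to 16.62 FPKM) and that of CDKN1B in sh-Bcl2 (24.9 to 27.8 and 25.2 to 28.3 FPKM) and in shControl (30.9 to 34.2 and 29.2 to 32.6 FPKM). The places of CDK4 and CCNE2 are less certain, since the strand setting is not known and their exons overlap TSPAN31 and INTS8. The 10 genes summed to 262.1 FPKM in the double knockdown, 262.5 FPKM in sh-c-Myc, 238.0 FPKM in sh-Bcl2 and 262.8 FPKM in shControl. With TMM library sizes the sums were 259.8, 242.8, 246.8 and 276.5 FPKM in the same order.

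**Figure D3:**
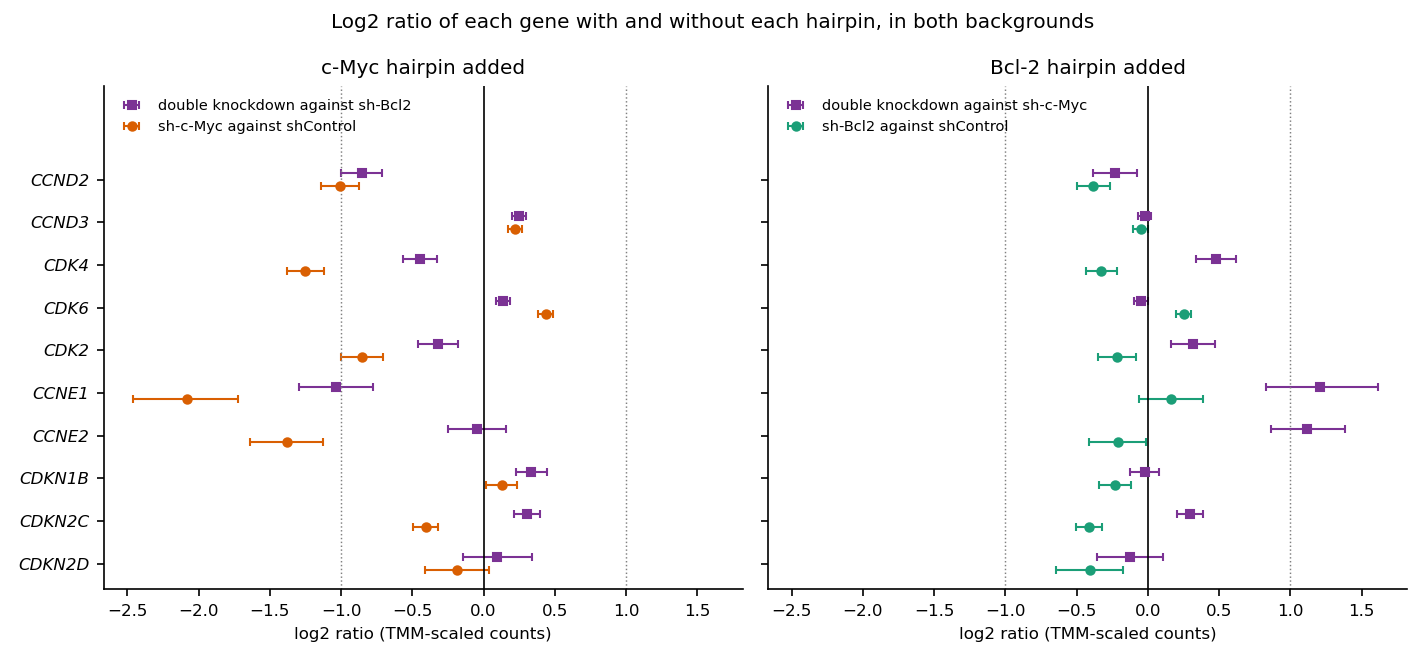
Log2 ratio of TMM-scaled counts for each G1 gene when the c-Myc hairpin (left) or the Bcl-2 hairpin (right) is present against absent, in each background; bars are 95% counting intervals and dotted lines mark 2-fold. On the left CCND2 and CCND3 have nearly the same value in both backgrounds, whereas CDK4, CDK2, CCNE1 and CCNE2 lie further below 0 for sh-c-Myc over shControl than for the double knockdown over sh-Bcl2; on the right CCNE1 (1.21) and CCNE2 (1.12) stand past 2-fold for the double knockdown over sh-c-Myc.

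Read across both backgrounds, which share no library, the c-Myc hairpin went with an interval below a ratio of 1 in both for 4 of the 10 genes (CCND2, CDK4, CDK2 and CCNE1), against 25% of tested genes. It went with an interval above 1 in both for 3 (CCND3, CDK6 and CDKN1B), against 19.3%, and with opposite sides for 1 (CDKN2C), against 2.74%. The Bcl-2 hairpin gave opposite sides for 5 of the 10 (CDK4, CDK6, CDK2, CCNE2 and CDKN2C), against 10.5% of tested genes. For 2 of these an interval came close to 0: that of CDK6 for the double knockdown over sh-c-Myc (-0.0479 [-0.0948, -0.00105]) and that of CCNE2 for sh-Bcl2 over shControl (-0.21 [-0.41, -0.0116]). The count was 4 with each of 3 other scalings, without CDK6 with DESeq2 size factors and without CCNE2 with total counts or upper quartile factors. It gave an interval below 1 in both for 1 (CCND2), against 6.64%, and above 1 in both for 0, against 10.6%. No spread between cultures stands behind these shares.

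The departure from additivity sets the double knockdown against the sum of both single knockdowns on the log2 scale, and a positive value means that the double knockdown was higher than that sum. It was 1.33 [1.01, 1.65] for CCNE2 and 1.05 [0.61, 1.48] for CCNE1, the cyclins of CDK2. It was 0.81 [0.63, 0.98] for CDK4, 0.71 [0.59, 0.84] for CDKN2C and 0.53 [0.33, 0.74] for CDK2. The interval lay above 0 for these 5 genes and for CDKN1B (0.21 [0.06, 0.36]), so for 6 of 10, against 29% of tested genes. CDK6 lay below 0, at -0.30 [-0.37, -0.23], as did 18.9% of tested genes. CCND2 (0.15 [-0.04, 0.35]), CCND3 (0.03 [-0.04, 0.10]) and CDKN2D (0.28 [-0.04, 0.61]) had intervals that include 0. Thus CCND2 and CCND3 were near the sum of both hairpins, and CCNE1 and CCNE2 were above it. The remaining D-type cyclin, CCND1, is not among the 10 and its departure is not given. Its log2 ratios to shControl were -1.43 for the double knockdown, -2.32 for sh-c-Myc and -0.38 for sh-Bcl2. With the double knockdown above sh-c-Myc (0.89 [0.25, 1.58]) and sh-Bcl2 below shControl, CCND1 also lay above the sum of both hairpins. CCND1 had 31 counts in sh-c-Myc. The median departure over all tested genes was 0.05. Scaled by total counts every departure was lower by about the same amount: CDKN1B was then 0.09 [-0.07, 0.24] and CCND3 -0.09 [-0.16, -0.02], which brings 0 into the interval of CDKN1B and puts that of CCND3 below it.

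**Figure D4:**
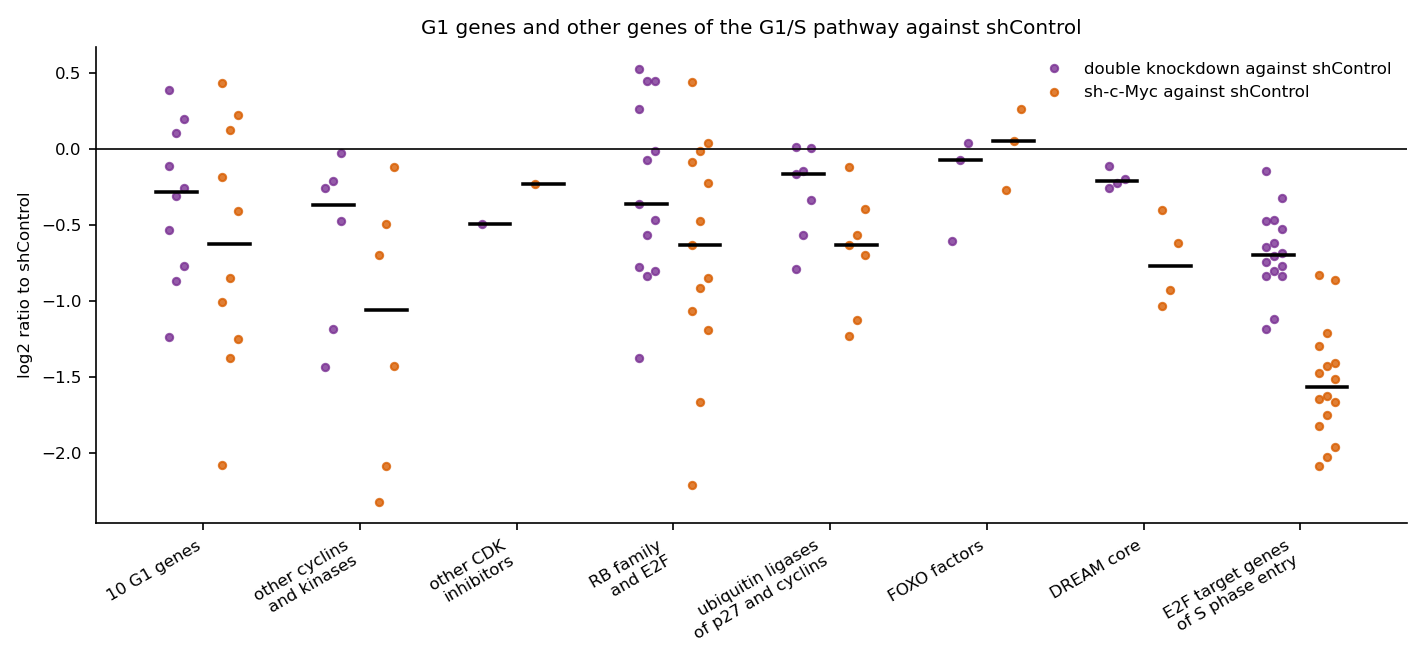
Log2 ratio to shControl of the 10 G1 genes and of 7 lists of other G1/S genes that met the CPM filter, for the double knockdown and for sh-c-Myc; each point is a gene and the black line is the list's median. The replication genes that E2F switches on lie lowest in sh-c-Myc (median -1.57) and closer to 0 in the double knockdown (median -0.70).

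Other genes of the G1/S pathway were read from lists of its known genes, which were chosen with earlier results of these data known. Of all tested genes, 5.95% were called lower for the double knockdown over shControl, 9.79% for sh-c-Myc over shControl and 2.16% for sh-Bcl2 over shControl. Of 16 E2F target genes of S phase entry, 2 were called lower for the double knockdown over shControl (median -0.70), 14 for sh-c-Myc over shControl (median -1.57) and 0 for sh-Bcl2 over shControl (median 0.04). MCM4, a subunit of the replicative helicase, stood at 516 CPM in the double knockdown, 249 CPM in sh-c-Myc, 952 CPM in sh-Bcl2 and 882 CPM in shControl, the same order of libraries as for CCNE1. RRM2, which makes deoxynucleotides, and CDC6, which loads the helicase, had log2 ratios of 1.56 [1.39, 1.73] and 1.32 [1.14, 1.50] for the double knockdown over sh-c-Myc. Of the 16, 3 were called higher in that comparison, against 1.65% of tested genes. For the double knockdown over sh-Bcl2, 2 of the 16 were called lower (median -0.70), against 3.60%.

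Of 13 genes of the RB family and E2F, 1 was called lower for the double knockdown over shControl, against 5.95% of tested genes, and 4 for sh-c-Myc over shControl, against 9.79%, with a median of -0.64. The activator E2F2 had the lowest log2 ratio of the list for sh-c-Myc over shControl and stood at 22.8 CPM in the double knockdown, 12.8 CPM in sh-c-Myc, 45.7 CPM in sh-Bcl2 and 59.2 CPM in shControl. E2F1, another activator, stood at 35.0 CPM in the double knockdown, 19.6 CPM in sh-c-Myc, 66.4 CPM in sh-Bcl2 and 62.4 CPM in shControl. For both, each library with the c-Myc hairpin was below each without it. TFDP1, the partner of E2F in DNA binding, and E2F8, a repressor, had log2 ratios of -1.19 [-1.24, -1.14] and -1.07 [-1.20, -0.94] for sh-c-Myc over shControl.

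Of 6 other cyclins and kinases that met the filter, 2 were called lower for the double knockdown over shControl, against 5.95% of tested genes, and 3 for sh-c-Myc over shControl (median -1.06), against 9.79%. CDC25A, the phosphatase that activates CDK2, stood at 31.7 CPM in the double knockdown, 16.9 CPM in sh-c-Myc, 63.8 CPM in sh-Bcl2 and 72.1 CPM in shControl. CCNA2, the S phase cyclin, had log2 ratios of -0.47 [-0.57, -0.38] for the double knockdown over shControl and -1.43 [-1.55, -1.31] for sh-c-Myc over shControl. CCNA2, CDC25A and E2F1 also count among the E2F targets above. Of 7 ubiquitin ligase genes 0 were called lower for the double knockdown over shControl and 2 for sh-c-Myc over shControl (SKP2 and CKS1B). Of 4 genes of the DREAM core that met the filter, a complex that holds cell cycle genes silent in G0, 0 were called lower for the double knockdown over shControl and 1 for sh-c-Myc over shControl (LIN52, -1.03 [-1.51, -0.58]), against the same 5.95% and 9.79%. Of 3 FOXO factors, known to drive CDKN1B, 0 were called in any of the 5 comparisons, with a median of 0.05 for sh-c-Myc over shControl. In each comparison most tested genes were not called either. For sh-Bcl2 over shControl 0 genes of these 7 lists were called in either direction, against 2.16% of tested genes lower and 2.46% higher.

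For the members whose level spanned at least 2-fold, the genes nearest in pattern were looked up by the distance between 4 centred log2 CPM values, among 8432 other genes (8433 for CCNE1) with at least 10 CPM in every library. The nearest to CDK4 were CKS1B (distance 0.0272), which partners SKP2, and LMNB2 (0.0517), a lamin. The nearest to CCNE1 were MRTO4 (0.133), a ribosome assembly factor, and DTL (0.161), an adaptor of a ubiquitin ligase of S phase. The nearest to CCNE2 were HMGN2 (0.0486), a chromatin protein, and WDR34 (0.115). The nearest to CCND2 were ANKS6 (0.0777) and IER5 (0.0861). With 4 libraries and so many genes, near matches are easily found, and these are a description of 4 values each.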

How the data were processed

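RNA-seq was measured in 4 MOLM-13 libraries. Per the submitters' processing notes, reads were aligned to GRCh38 with HISAT2 (whose version the sources used here do not give) and the deposited counts per gene were made with HTSeq 0.13.5. The deposited FPKM are, per the file headers, the authors' values scaled to length and library size. The sources used here give neither annotation nor strand setting; gene lengths in the file equal the GENCODE 29 exon union for 99.7% of 24940 genes. Per the labels, libraries were made with a NEBNext Ultra kit from 1.5 µg RNA, and Western blots followed 72 h of doxycycline. Columns that belong to no sample numbered 0.

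The members and gene lists were chosen with earlier results of these data known. Counts were scaled with TMM factors over the whole table (edgeR 4.0.16, R 4.3.3). Log2 ratios used a prior count of 0.5 and exact conditional binomial 95% intervals (scipy 1.17.1), which leave out the spread between cultures; 1 library a group allows no test of 2 groups. Departures and ratios of ratios have delta-method intervals. The SE printed beside an edgeR term is its absolute log2 value divided by the square root of its quasi-likelihood F statistic. The 2 by 2 fit (edgeR quasi-likelihood, 1 term per hairpin) took the 12885 genes that reached 1 CPM in 2 or more libraries, adjusted p-values over all of them (Benjamini-Hochberg), and had a common dispersion of 0.0221 and 11.1 prior degrees of freedom; DESeq2 1.42.0 and limma 3.58.1 were alternatives. The edgeR fit was also run on simulated counts, and DESeq2 and limma-voom were not. Named are all members, MYC, BCL2, genes that overlap a member, and the 2 nearest patterns of members that span 2-fold. Also named are up to 4 genes per list called against shControl, with the largest log2 ratios first. CDKN1A, CDKN1C, SPI1, FLT3, CD14, CD163, CD68 and VCAN fall outside this rule and were chosen after their values were seen. Promoter windows are RefSeq's, and protein sequences were not used here.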

Additional observations from a re-analysis of the deposited data

Results flagged for a closer look

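For 5 genes the Bcl-2 hairpin went with opposite signs in the 2 backgrounds, and for 1 gene the c-Myc hairpin did. With 1 library per group every group is its single library, and the difference between backgrounds was not tested. With other scalings CDK6 (DESeq2 size factors) or CCNE2 (total counts, upper quartile factors) had an interval that took in 0.

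The log2 ratio of CCNE2 was 1.12 for the double knockdown over sh-c-Myc and -0.21 for sh-Bcl2 over shControl. CDK4 had 0.48 for the double knockdown over sh-c-Myc and -0.33 for sh-Bcl2 over shControl. For CDK2 the values were 0.32 for the double knockdown over sh-c-Myc and -0.22 for sh-Bcl2 over shControl. CDK6 ran the other way, with -0.0479 for the double knockdown over sh-c-Myc and 0.25 for sh-Bcl2 over shControl. CDKN2C had 0.30 for the double knockdown over sh-c-Myc and -0.41 for sh-Bcl2 over shControl. CDKN2C also differed for the c-Myc hairpin, with 0.31 for the double knockdown over sh-Bcl2 and -0.41 for sh-c-Myc over shControl.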

How the results depend on the processing

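No paired analysis was possible because each group holds 1 library. Of 50 log2 ratios (10 genes, 5 comparisons), 1 whose interval was off 0 turned its sign under an alternative setting: CDKN2C for the double knockdown over shControl, -0.11, was 0.0407 once the trend on GC and length was removed. The 1 gene called lower in the double knockdown than in sh-Bcl2 (CCNE1) became 0 with total counts, with upper quartile factors and on log2(FPKM + 1). The number was also 0 with the trend on GC and length removed, and it was 2 at a 1.5-fold limit. The 4 called lower in sh-c-Myc than in shControl became 2 with FPKM + 1. They lost CCND2 with total counts or upper quartile factors and gained CDK2 at 1.5-fold. The 2 called higher in the double knockdown than in sh-c-Myc became 0 with FPKM + 1 and 1 with the trend on GC and length removed. The 1 called lower in the double knockdown than in shControl became 3 at 1.5-fold. A lower limit can only add calls, and the cause of the other differences was not tested. The pseudocount of 1 by itself shrinks ratios of genes at a few FPKM. Scaling matters for sh-c-Myc over shControl: the median log2 ratio of the 13726 tested genes was -0.02 with TMM and 0.17 with total counts, and the share of calls that were higher was 56.5% and 70.9%. In the 2 by 2 fit, the members called for the c-Myc hairpin numbered 4 with edgeR, 3 with DESeq2, 4 with limma-voom and 5 with upper quartile factors, beside 3021, 2026, 3068 and 3988 of 12885 genes, and 5 with no filter, beside 3459 of 24940. Chosen after seeing the data were other scalings of the signs in both backgrounds, where genes below a ratio of 1 in both for the Bcl-2 hairpin numbered 1 with TMM and 2 (CCND2 and CDKN1B) with total counts or upper quartile factors, and TMM library sizes for summed FPKM. CCNE1, at 79 to 365 counts, had the widest interval in 4 of 5 comparisons and CDKN2D in 1 (sh-Bcl2 over shControl), and the spread between cultures is unknown throughout.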
